A study of Mus musculus with 16 samples.

Results

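The chemokine receptor genes Ccr1, Ccr2, Cx3cr1, Cxcr3, Cxcr4 and Cxcr6 were followed in leukocytes of mouse tumors. They were chosen as a list of names, with earlier results of these data known. They are 6 of the 31053 genes measured, and all 6 were found in the matrices. The leukocytes were live CD45+ cells, enriched on beads and sorted from subcutaneous flank tumors of C57BL/6J mice aged 6 to 8 weeks, and were profiled as single cells by the 10x 3' method. MC38 and Panc02-SIY tumors of about 5 mm were either left untreated or given a single dose of 12 Gy and taken 24 h later, which makes 4 groups with 4 libraries in each. The lines differ in origin: MC38 is of colorectal carcinoma, while Panc02-SIY is of pancreatic adenocarcinoma and carries SIY as a model antigen. Every comparison between the tumors is therefore also a comparison of 2 single cell lines. The series' design text gives 4 animals per group and the study's methods give 3. Nothing ties a library to an animal, so p-values measure only the spread between these libraries, which may be partly technical.

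Chemokine receptors are G protein-coupled receptors that steer leukocytes along gradients of chemokines, small secreted proteins. In tumors they are known for bringing in monocytes, neutrophils and lymphocytes and for holding some of them there. Ccr1 binds Ccl3, Ccl5, Ccl7 and other inflammatory ligands and is known from neutrophils, monocytes and macrophages. Ccr2 binds Ccl2, Ccl7 and Ccl12 and is needed for monocytes to leave the bone marrow. Cx3cr1 is the receptor of fractalkine (Cx3cl1) and marks many macrophages, patrolling monocytes and effector CD8 T cells. Cxcr3 binds the interferon-inducible chemokines Cxcl9 and Cxcl10 and is carried by activated T and NK cells. Cxcr4 binds Cxcl12 and is known for retaining neutrophils and B cell precursors in the marrow. Cxcr6 binds Cxcl16 and is found on effector and tissue-resident T cells.

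The unit of measurement is the unique molecular identifier (UMI), 1 captured RNA molecule, counted per cell barcode. Libraries of MC38 tumors shared a median of 964.5 barcode sequences per pair, 83.3% of the smaller library, against 82 (5.54%) for Panc02-SIY. Within a tumor, only the copy of each sequence with the highest UMI total was therefore kept, which left 2632 of 9843 MC38 barcodes and 18136 of 18835 Panc02-SIY barcodes. The pairs included untreated with irradiated libraries. For the 1239 MC38 sequences in more than 1 library, the library and treatment assigned rest on these UMI totals. Irradiated MC38 replicate 1 kept 42.8% of its UMIs. P-values for MC38 and the interaction take the libraries as separate, which the sharing makes uncertain. The kept barcodes numbered 147 to 609 per MC38 library and 1113 to 4452 per Panc02-SIY library, with 1385711 to 8500889 and 5275195 to 43708746 UMIs. Ptprc, which encodes CD45, had a UMI in 72.9% to 92.8% of them. Cells were clustered without any chemokine receptor gene and clusters were named from marker genes. The classes of MC38 were mostly macrophage-like (1641 barcodes), with 333 NK-like and 174 T cell-like barcodes. Those of Panc02-SIY held 5066 CD8 T-like, 3173 macrophage-like, 2083 NK-like, 1887 neutrophil-like and 841 monocyte-like barcodes, beside CD4 T-like, Treg-like (regulatory T), B-like and conventional dendritic cell-like (cDC-like) barcodes in smaller numbers. The T cell-like class as a whole holds the T subsets and a T cluster with no subset. That cluster, of 1081 barcodes, was named from a tie of subset lists, with only 2 of the 8 general T cell markers raised. The names rest on rebuilt clusters. Clusters named non-immune, led by genes such as Col1a2 and Cp, and clusters left unnamed stayed among all CD45+ barcodes. Non-immune barcodes held 2.90% to 15.3% of UMIs in untreated and 1.87% to 8.73% in irradiated Panc02-SIY libraries, and at most 1.09% in MC38 libraries. Unnamed barcodes held at most 3.55% in any library. Levels are given in CPM, the UMIs of the gene per 1000000 UMIs of the same library and class. In a level over all CD45+ barcodes, fewer cells of a type and less RNA per cell cannot be told apart.

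Each receptor had its own set of classes, and the levels of a class, pooled over libraries, are given as a description with no test. Ccr1 in Panc02-SIY tumors was highest in neutrophil-like barcodes, at 1178 CPM, followed by monocyte-like barcodes at 344. The single libraries spanned 890 to 1444 in the first class and 135 to 433 in the second, so these neighbours did not overlap. The mast or basophil-like class, with 110 barcodes too small to give a level per library, held 65. Macrophage-like barcodes followed at 51.6 in Panc02-SIY, in libraries of 16 to 143, and overlapped the cDC-like class, at 37.4 in libraries of 12.0 to 67.2. CD8 T-like and NK-like barcodes held 4.74 and 3.02. In MC38, where 4 classes beside the T cell-like whole had at least 50 barcodes, the order was macrophage-like at 517, cDC-like at 369, Treg-like at 151 and NK-like at 26.7. The macrophage-like libraries of MC38 spanned 383 to 696 and the cDC-like libraries 251 to 510, so the leading pair overlapped.

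Ccr2 was carried by several lineages. Monocyte-like (969.7) and Treg-like barcodes (926) led in Panc02-SIY, and their libraries, at 714 to 1080 and 768 to 1175, overlapped. NK-like barcodes came next at 589.5 in libraries of 520 to 655, below every monocyte-like and Treg-like library. CD4 T-like barcodes held 286 and CD8 T-like barcodes 53. Macrophage-like barcodes held 616 in MC38 and 21.9 in Panc02-SIY. In MC38 the Treg-like class (542), the NK-like class (348) and the macrophage-like class overlapped between libraries.

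Cx3cr1 was highest in macrophage-like barcodes of both tumors, at 299.7 in MC38 and 259 in Panc02-SIY. In Panc02-SIY the monocyte-like class followed at 151, and its libraries, at 114 to 252, overlapped the macrophage-like ones, at 218 to 426. The mast or basophil-like class, of 110 barcodes, held 149. CD8 T-like barcodes held 58.4, in libraries of 42.4 to 94.4, and NK-like barcodes held 25.7, in libraries of 16.1 to 43.3. All NK-like libraries of MC38 were at or below 51.8, under the lowest macrophage-like library of 146.

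The remaining receptors were lymphoid or mixed. Cxcr3 was highest in Treg-like barcodes, at 95 in Panc02-SIY and 89.8 in MC38. In Panc02-SIY it was followed by CD4 T-like (56.2), CD8 T-like (43.2) and NK-like barcodes (31), each overlapping its neighbour between libraries. Cxcr6 in Panc02-SIY was highest in CD4 T-like (559) and CD8 T-like barcodes (518), whose libraries, at 231 to 928 and 367 to 873, overlapped. Treg-like barcodes had 268 and NK-like barcodes 30.8 CPM of Cxcr6, with 137 to 420 in the first and 7.56 to 63.5 in the second. Cxcr4 was spread over lineages and stood at 2025 in neutrophil-like, 737 in B-like, 279 in NK-like, 209 in monocyte-like and 21.3 in CD8 T-like barcodes of Panc02-SIY. The neutrophil-like libraries, at 1661 to 2249.7, stood above the B-like ones, at 380 to 1040, while NK-like and monocyte-like libraries overlapped. In MC38 the NK-like (183) and macrophage-like classes (169) overlapped between libraries.

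**Figure D1:**
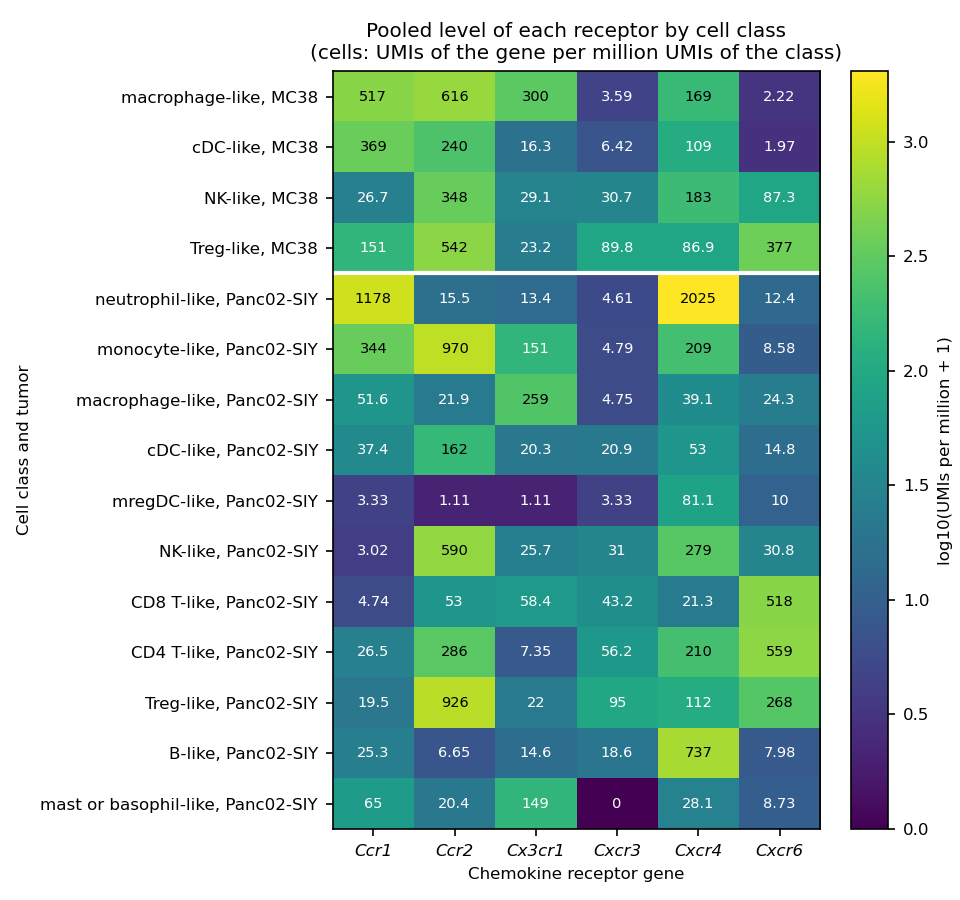
Pooled level of each receptor in each class of each tumor, in CPM, printed in the cells and colored on a log10 scale. Ccr1 and Cxcr4 peaked in neutrophil-like barcodes of Panc02-SIY at 1178 and 2025, and Ccr2 of macrophage-like barcodes was 616 in MC38 and 21.9 in Panc02-SIY.

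Classes differ in depth, with a median of 19001 UMIs per macrophage-like barcode in MC38 and 2241 in Panc02-SIY, so the share of barcodes with a UMI was taken after thinning each barcode to 1000 UMIs. Shallower barcodes were left out, 195 in untreated and 165 in irradiated MC38 and 1415 and 1013 in Panc02-SIY. Values in parentheses are exact binomial 95% intervals and cover counting error only. Ccr1 had a UMI in 61% (58.6 to 63.3) of neutrophil-like barcodes of Panc02-SIY, a class with a median of 2290.0 UMIs. The share was 39.8% (37.3 to 42.2) of macrophage-like barcodes in MC38 and 4.60% (3.78 to 5.54) in Panc02-SIY. In B-like barcodes, which should lack Ccr1 and had a median of 3398 UMIs, it was 2.25% (0.616 to 5.65). The macrophage share of Panc02-SIY lay inside that interval and cannot be told from background by shares alone, while the neutrophil share lay far above it. Unthinned, the shares were 76.4% of neutrophil-like and 10.9% of macrophage-like barcodes, and 6.63% of B-like ones.

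The share for Ccr2 was 51.6% (48.2 to 55) of monocyte-like, 49.5% (43.8 to 55.2) of Treg-like and 38.1% (36 to 40.2) of NK-like barcodes in Panc02-SIY. Among macrophage-like barcodes it was 41.4% (39 to 43.9) in MC38 and 1.93% (1.40 to 2.58) in Panc02-SIY. Neutrophil-like barcodes gave 0.933% (0.534 to 1.51), whose interval meets that of the Panc02-SIY macrophages. Without thinning the macrophage shares were 77.9% and 4.60%, a gap of the same direction. For Cx3cr1 the thinned macrophage shares were 20.5% (18.5 to 22.6) in MC38 and 16.8% (15.3 to 18.4) in Panc02-SIY, against 1.12% (0.136 to 4.00) in B-like barcodes of Panc02-SIY. CD8 T-like barcodes had a UMI of Cx3cr1 in 6.21% (5.56 to 6.91), above the B-like interval.

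Cxcr6 was found in 41% (39.6 to 42.3) of CD8 T-like, 32.6% (28.6 to 36.8) of CD4 T-like and 18.4% (14.3 to 23.2) of Treg-like barcodes of Panc02-SIY. Unthinned, these were 86.7%, 54.2% and 33.7%. Neutrophil-like barcodes, which should lack Cxcr6, gave 0.525% (0.240 to 0.994). Cxcr3 was sparse, with 7.77% (5.04 to 11.3) of Treg-like, 5.04% (4.45 to 5.68) of CD8 T-like and 2.85% (2.17 to 3.67) of NK-like barcodes against 0.466% (0.202 to 0.917) of neutrophil-like barcodes. All of these lymphoid shares lay above the neutrophil interval. The CD8 T-like class had a median of 7850.5 UMIs and the neutrophil-like class 2290.0. Cxcr4 had a UMI in 74.7% (72.6 to 76.7) of neutrophil-like, 47.2% (39.7 to 54.8) of B-like and 2.22% (1.83 to 2.67) of CD8 T-like barcodes of Panc02-SIY.

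The 6 genes lie on 3 chromosomes of the mouse genome (GENCODE M21 on GRCm38, the assembly also named mm10 that the submitters' processing notes give). Cxcr6 (chr9:123806475-123811760), Ccr1 (chr9:123962124-123968692) and Ccr2 (chr9:124101950-124113557) sit within 307 kb, in a stretch that is known for its chemokine receptor genes. Cx3cr1 (chr9:119901616-120069879) lies on the same chromosome, Cxcr4 (chr1:128588199-128592293) on chromosome 1 and Cxcr3 (chrX:101731535-101734269) on the X chromosome. All are protein-coding genes. The annotated span of Cx3cr1 overlaps several other genes, and Cxcr6 lies within the span of Fyco1 on the opposite strand. The promoters of Ccr1 and Cxcr4 are shown because these genes were called most often after irradiation, and that of Cxcr3 because its calls went the other way. Each is the RefSeq GRCm38.p6 sequence from 250 bases before to 50 bases after the annotated start, read on the gene's own strand. Capitals mark matches to the motifs searched, and adjoining matches run together.
Ccr1 (chr9:123968643-123968942, minus strand): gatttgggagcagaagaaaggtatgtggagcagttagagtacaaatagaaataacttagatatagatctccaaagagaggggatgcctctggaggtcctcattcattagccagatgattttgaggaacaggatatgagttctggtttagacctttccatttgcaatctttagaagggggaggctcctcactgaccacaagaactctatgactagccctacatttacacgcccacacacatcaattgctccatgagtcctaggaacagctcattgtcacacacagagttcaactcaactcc
Cxcr4 (chr1:128592250-128592549, minus strand): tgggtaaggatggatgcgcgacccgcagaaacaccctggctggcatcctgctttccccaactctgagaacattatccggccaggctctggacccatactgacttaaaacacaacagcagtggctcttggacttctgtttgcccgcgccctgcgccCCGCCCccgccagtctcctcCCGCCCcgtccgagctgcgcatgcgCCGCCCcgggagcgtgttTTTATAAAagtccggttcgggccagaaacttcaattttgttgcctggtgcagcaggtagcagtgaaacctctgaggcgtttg
Cxcr3 (chrX:101734098-101734397, minus strand): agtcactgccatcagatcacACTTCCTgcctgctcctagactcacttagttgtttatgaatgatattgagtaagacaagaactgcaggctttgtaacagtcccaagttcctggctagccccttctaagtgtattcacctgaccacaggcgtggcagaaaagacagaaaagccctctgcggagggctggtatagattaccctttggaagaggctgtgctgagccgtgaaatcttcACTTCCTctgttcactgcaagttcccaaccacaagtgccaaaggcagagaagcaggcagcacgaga

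The letters of 4 motifs, chosen after the sequences were seen, were searched on both strands. The Cxcr4 promoter held TATAAA, the letters of a TATA box, at -30 on its own strand and, overlapping it, at -32 on the other strand, counted from the start site. TATAAA occurred in 13.6% of 32851 promoters of the same length. The Cxcr4 promoter also held GGGCGG, a GC box known to bind Sp factors, on the other strand at -95, -75 and -50. That motif was present in 35.7% of promoters. AGGAAGT, an ETS-type motif, was present in the Cxcr3 promoter on the other strand at -230 and -16, and in 9.35% of promoters. The core of the hypoxia response element, ACGTG, was in 19.6% of promoters and had no match in any of the 6 windows. The Ccr1 window held no match to any of the 4 motifs. A match is a run of letters and does not show a site in use. The G and C content was 59.3% for Cxcr4, 44.3% for Cxcr6, 44% for Ccr1, 38% for Ccr2, 54.3% for Cx3cr1 and 49.3% for Cxcr3, against a median of 52.7% over all promoters.

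The tumors differed in which class supplied each receptor's UMIs. In untreated MC38 tumors macrophage-like barcodes held 94.3% of Ccr1, 93.5% of Ccr2, 98.9% of Cx3cr1 and 85.8% of Cxcr4 UMIs. That class held 87.6% of all UMIs there, so a share near this value is what an even spread over classes would give. Cxcr6 in the same tumors came from CD8 T-like (41.7%) and Treg-like barcodes (12.5%), among others. In untreated Panc02-SIY tumors Ccr1 came from neutrophil-like (61.8%), macrophage-like (14.6%) and monocyte-like barcodes (14.2%). Ccr2 came from NK-like (33.6%), monocyte-like (21.1%) and CD8 T-like barcodes (18.2%), and Cxcr6 almost wholly from CD8 T-like barcodes (86.4%). Of all UMIs, single untreated Panc02-SIY libraries held 39.2% to 49.5% in CD8 T-like and 3.02% to 27.1% in macrophage-like barcodes. They held 3.63% to 15.2% in NK-like, 1.92% to 4.58% in neutrophil-like and 1.10% to 5.41% in monocyte-like barcodes. The CD8 T-like part of Ccr2 lay below its range, and the macrophage-like part of Ccr1 within its range.

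In irradiated Panc02-SIY tumors a larger part of the Ccr1 and Ccr2 UMIs came from monocyte-like barcodes. The monocyte-like class held 33.3% of Ccr1 and 48.1% of Ccr2 UMIs in irradiated Panc02-SIY tumors, and its median share of barcodes was 2.31% in untreated and 6.84% in irradiated libraries. The neutrophil-like class had a median share of 8.15% and 15.4%, and the CD8 T-like class of 32.5% and 24.3%. Of all UMIs, monocyte-like barcodes held 1.10% to 5.41% in single untreated and 10.5% to 16.9% in single irradiated Panc02-SIY libraries. These shares were not tested. In MC38 the macrophage-like median share of barcodes was 61.4% untreated and 59.6% irradiated. Macrophage-like barcodes of irradiated MC38 still held 92.3% of Ccr1 and 84.7% of Cxcr4 UMIs. They held 76.6% to 87.4% of all UMIs in single irradiated libraries, so the Cxcr4 part lay within that range and the Ccr1 part above it.

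**Figure D2:**
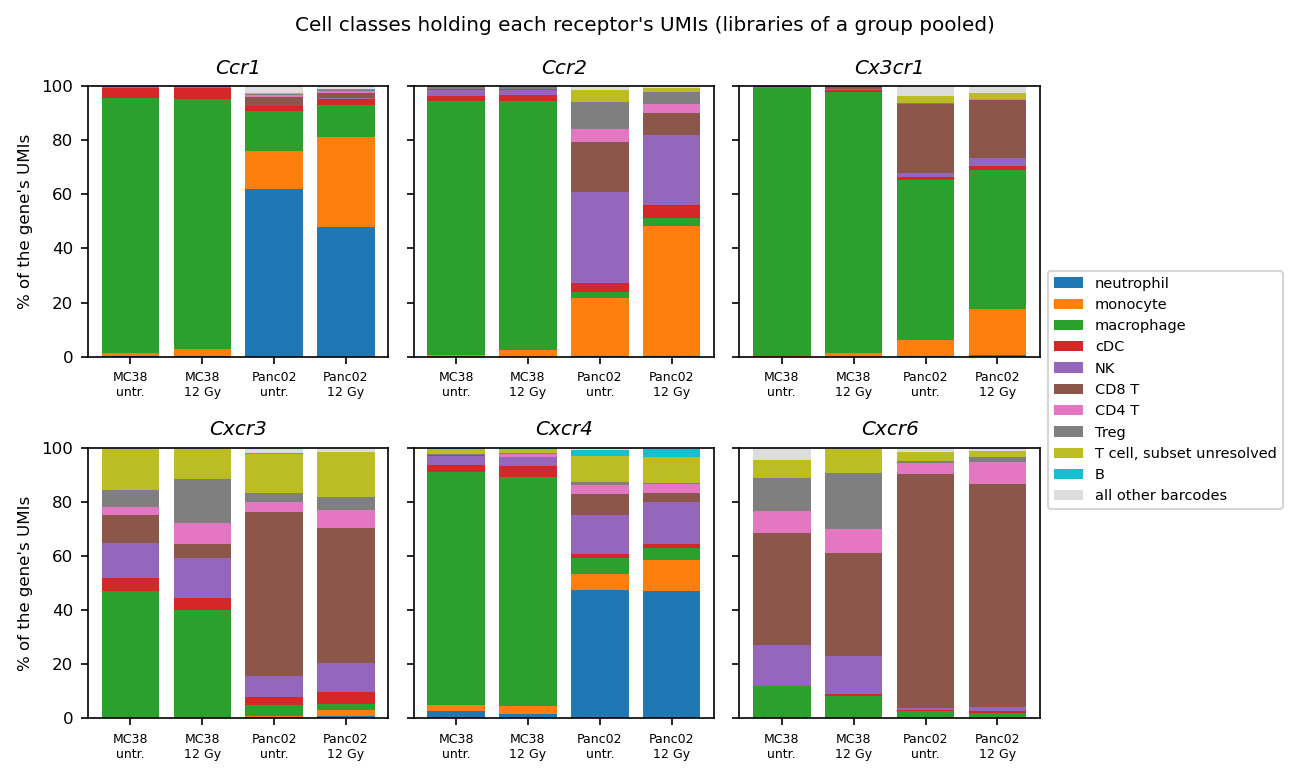
Percent of each receptor's UMIs that came from each class, with the libraries of a group pooled, as stacked bars for the 4 groups. Ccr1, Ccr2 and Cx3cr1 in MC38 came from macrophage-like barcodes for 91.9% or more, while in Panc02-SIY the monocyte-like part of Ccr2 was 21.1% in untreated and 48.1% in irradiated tumors.

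The first comparison asked whether the receptors changed in all CD45+ cells 24 h after 12 Gy. Ccr1 rose in both tumors. In MC38 the untreated libraries held 381, 387, 365 and 429.6 CPM of Ccr1 and the irradiated libraries 505, 654, 587 and 553. Every irradiated library was above every untreated one, and Ccr1 was 1.58-fold higher after scaling by trimmed mean of M values (TMM) (log2 fold change 0.66, SE 0.20, adjusted p = 0.0503, edgeR quasi-likelihood test with Benjamini-Hochberg adjustment, which gives the adjusted p throughout). Calls were made where the adjusted p was under 0.1 and the fold change exceeded 1.3. The MC38 call was lost without untreated replicate 1 (adjusted p = 0.121), untreated replicate 3 (0.117), irradiated replicate 2 (0.123) or irradiated replicate 3 (0.105), and with all deposited barcodes, shared ones included (log2 fold change 0.51, adjusted p = 0.181).

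In Panc02-SIY the untreated libraries held 61.5, 53.7, 39.1 and 26.8 CPM of Ccr1 and the irradiated ones 159, 151, 191 and 109. The groups did not overlap, and Ccr1 was 3.23-fold higher (log2 fold change 1.69, SE 0.21, adjusted p = 0.000197). It was called in every alternative tried, with log2 fold changes of 1.55 to 1.91 when each library was left out in turn. Of the 24 tests of the receptors in MC38, over all CD45+ and 3 classes, 2 were called (8.33%), against 6.64% of all genes over the same populations and 11.7% in all CD45+ alone. In Panc02-SIY 7 of 61 tests were called (11.5%), against 3.87% over the same 11 populations and 14.7% in all CD45+, and 5 more could not be tested for low counts. Of the 7, 3 were in all CD45+ cells. The MC38 share is near its background and is no result about the list. Because the receptors and the lists used below were chosen with earlier results of these data known, called shares are descriptions only.

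Cxcr4 was measured at 190.3, 129, 154 and 69.4 CPM in untreated and 351, 249, 300.0 and 136 in irradiated Panc02-SIY libraries. The groups overlapped, since irradiated replicate 4 lay within the untreated range, and Cxcr4 rose 1.82-fold (log2 fold change 0.86, SE 0.28, adjusted p = 0.0556). The call was lost without untreated replicate 2 or 4 or irradiated replicate 1 or 3, at adjusted p = 0.112 to 0.160. In MC38 the levels of Cxcr4 were 119.8, 146, 174 and 126 untreated and 175, 248, 222 and 188 irradiated. These groups did not overlap, yet the difference missed the threshold (log2 fold change 0.66, SE 0.29, adjusted p = 0.169). It was called in a fit of the MC38 libraries alone (log2 fold change 0.64, SE 0.15, adjusted p = 0.0173).

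Cxcr3 fell in all CD45+ cells of Panc02-SIY, from 54.6, 32.5, 32.8 and 28.2 CPM in untreated to 30.5, 29.9, 26 and 17.1 in irradiated libraries (log2 fold change -0.59, SE 0.20, adjusted p = 0.0634). The groups overlapped at 28.2 to 30.5, and the call was lost without any of untreated replicates 1, 2 and 3 or irradiated replicates 1, 3 and 4, at adjusted p = 0.114 to 0.280, and without untreated replicate 1 the change was -0.31 and without irradiated replicate 4 -0.37. Ccr2 held 252, 113, 204 and 50.4 in untreated and 338, 322, 329 and 175 in irradiated Panc02-SIY libraries. The spread between libraries was wide, with the lowest value of each group in replicate 4, and the difference was not called (log2 fold change 0.85, SE 0.36, adjusted p = 0.140). It was called without untreated replicate 1 (log2 fold change 1.23, adjusted p = 0.0414) or irradiated replicate 4 (1.08, adjusted p = 0.0731). In MC38 Ccr2 spanned 472 to 549 untreated and 408 to 726 irradiated (log2 fold change 0.31, SE 0.36, adjusted p = 0.660).

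Cx3cr1 spanned 229 to 337 CPM in untreated and 128 to 238 in irradiated MC38 libraries (log2 fold change -0.44, SE 0.21, adjusted p = 0.213). In Panc02-SIY it spanned 54.2 to 92.4 and 78.5 to 105 (log2 fold change 0.16, SE 0.21, adjusted p = 0.686). Cxcr6 spanned 7.82 to 20.8 and 7.66 to 30.5 in MC38 (log2 fold change 0.61, SE 0.40, adjusted p = 0.377) and 172 to 330.1 and 166 to 360.2 in Panc02-SIY (log2 fold change -0.26, SE 0.33, adjusted p = 0.667). Each of these ranges overlapped between untreated and irradiated libraries, and none of the differences was called.

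**Figure D3:**
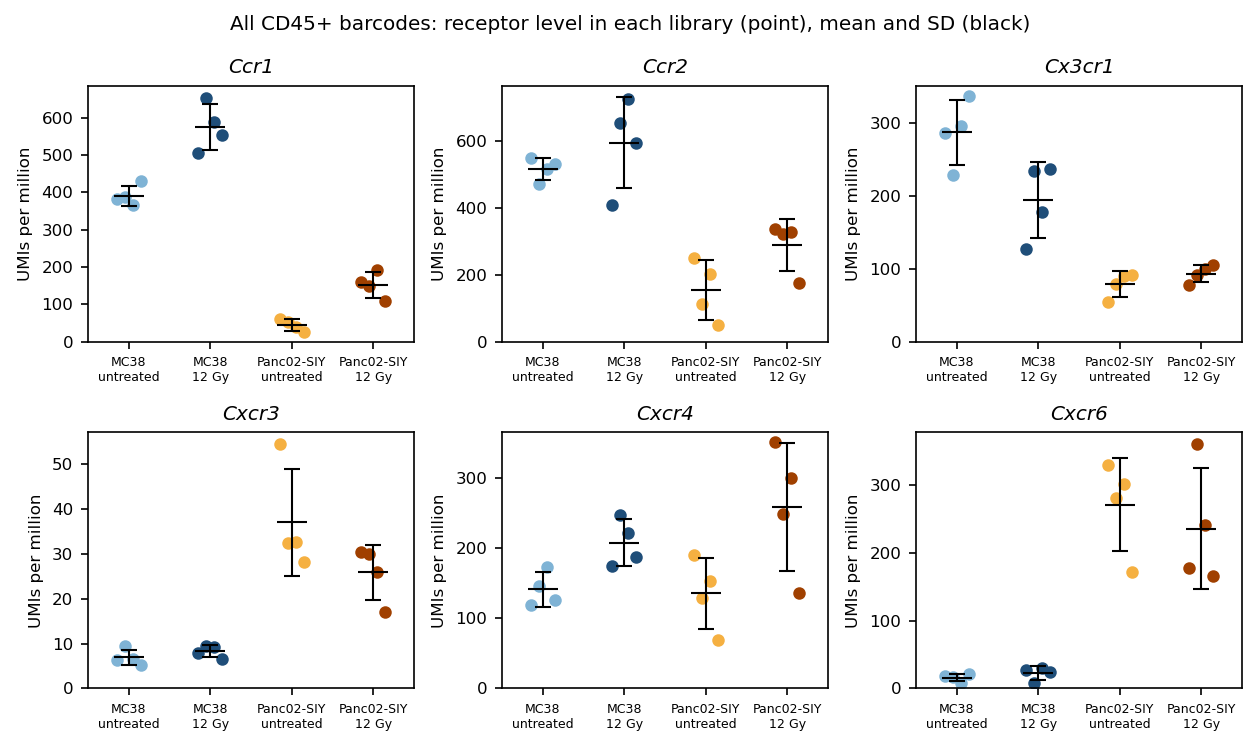
Level of each receptor over all CD45+ barcodes, as CPM, in each of the 4 libraries of each group (points) with the mean and SD (bars). Ccr1 of irradiated libraries lay above that of untreated libraries in both tumors, at 505 to 654 against 365 to 430 in MC38 and 109 to 191 against 26.8 to 61.5 in Panc02-SIY.

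How far the makeup of the sorted cells moves with these levels was described by exchanging the class shares and the class levels of the groups, with no test. For Ccr1 in Panc02-SIY the classes rebuilt 47 CPM in untreated and 154 in irradiated tumors. Irradiated class shares with untreated class levels gave 95.5, and untreated shares with irradiated levels gave 80.7. For MC38 the same 4 values of Ccr1 were 392, 573, 385 and 588. In MC38 irradiated levels alone gave a value near the irradiated one, and irradiated shares alone a value near the untreated one. In Panc02-SIY each exchange alone gave a value between the untreated and irradiated ones. Classes with few barcodes in MC38 enter these values, and the cause of the changes was not tested. For Ccr2 in Panc02-SIY the exchange of shares alone gave 269.7 and that of levels alone 173, from 153 untreated and 293 irradiated.

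For Cxcr4 in Panc02-SIY, shares alone gave 230.1 and levels alone 161, between 133 and 256. Cxcr6 went in opposite directions, to 191 with irradiated shares and to 347 with irradiated levels, from 269.8. For Cxcr3 the values were 33.8 with irradiated shares and 30.9 with irradiated levels, from 37.7 untreated to 25.7 irradiated.

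Macrophage-like barcodes were the only myeloid class with enough barcodes to test in both tumors. Cxcr4 rose in them in both. In MC38 the untreated libraries held 127, 128, 179 and 119 CPM of Cxcr4 and the irradiated libraries 188, 248, 215 and 198. The groups did not overlap, and Cxcr4 was 1.63-fold higher (log2 fold change 0.70, SE 0.14, adjusted p = 0.00197). In Panc02-SIY the levels were 25.5, 25.3, 39.6 and 30.5 untreated and 73.5, 54.2, 77.9 and 46.2 irradiated. These groups did not overlap either, and Cxcr4 was 1.95-fold higher (log2 fold change 0.96, SE 0.19, adjusted p = 0.00380). Called genes made up 12.5% of all genes tested in macrophage-like barcodes of MC38 and 6.86% in those of Panc02-SIY. Both calls held when each library was left out in turn, and both were lost when each barcode was gated on its own markers without clusters (MC38 0.66, adjusted p = 0.350, and Panc02-SIY 1.04, adjusted p = 0.248).

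Ccr1 of macrophage-like barcodes was 56.1, 66.4, 34.8 and 16 CPM in untreated and 88.2, 106, 143 and 77.6 in irradiated Panc02-SIY libraries. The groups did not overlap, and Ccr1 rose 2.77-fold (log2 fold change 1.47, SE 0.36, adjusted p = 0.0380). A fold of this size was not particular to the class. Fitted Ccr1 folds in Panc02-SIY were 3.02 in NK-like, 2.99 in T cell-like, 2.73 in CD8 T-like, 2.47 in Treg-like and 2.31 in CD4 T-like barcodes. B-like barcodes went the other way, at 0.563, and none of these lymphoid folds was called. Several rest on few UMIs of Ccr1 per library. B-like libraries held 0 to 5 untreated and 1 to 3 irradiated, NK-like 1 to 2 and 3 to 12, and Treg-like 0 to 5 and 0 to 10. The whole T cell-like class held 17 to 48 and 19 to 124. The macrophage-like barcodes of the tumors fell largely into separate clusters, and 39 Panc02-SIY barcodes, 35 of them irradiated, lay in a cluster held by MC38, where their pooled levels were 770.0 for Ccr1 and 833 for Ccr2. With macrophage-like barcodes kept only in clusters held by their own tumor, an alternative added after the data were seen, Ccr1 changed by 1.06 (adjusted p = 0.165), so the call was lost. It was also lost without irradiated replicate 3 (adjusted p = 0.130). Cxcr4 kept its calls under the same alternative, at 0.71 (adjusted p = 0.00385) in MC38 and 0.80 (0.0297) in Panc02-SIY.

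Monocyte markers moved in the same direction within the macrophage-like class. The summed level of 8 monocyte markers there, none of them a receptor, was 56.1 to 159.7 CPM in untreated and 185 to 408 in irradiated Panc02-SIY libraries, with 4 to 8 of 8 and 5 to 8 of 8 markers detected per library. In MC38 the sum was 1573 to 2604 untreated and 2993 to 3367 irradiated. The 8 neutrophil markers in the same class summed to 118 to 219 untreated and 185 to 361 irradiated in Panc02-SIY and to 112 to 139 and 114 to 168 in MC38. The part of these cells in the macrophage results was not tested.

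Ccr1 of macrophage-like barcodes in MC38 was 431, 439, 383 and 449 untreated and 613, 696, 653 and 617 irradiated. Every irradiated library was higher, yet the difference was not called in the fit over all groups (log2 fold change 0.69, SE 0.28, adjusted p = 0.162). It was called in a fit of the MC38 libraries alone (log2 fold change 0.69, adjusted p = 1.54e-05) and without untreated Panc02-SIY replicate 2 (adjusted p = 0.0188) or 4 (0.00216), which share the estimate of spread. Ccr2 of macrophage-like barcodes spanned 521 to 582 and 453 to 822 in MC38, with no call (log2 fold change 0.33, SE 0.35, adjusted p = 0.647).

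In Panc02-SIY Ccr2 of macrophage-like barcodes was 20.4, 7.77, 41.7 and 8.53 untreated and 58.8, 82.1, 38.6 and 28.5 irradiated. The groups overlapped, since untreated replicate 3 lay above irradiated replicates 3 and 4, and the difference was not called (log2 fold change 1.67, SE 0.54, adjusted p = 0.107). Without untreated replicate 3 it was called (log2 fold change 2.45, adjusted p = 0.00720), as it was without irradiated replicate 4 (2.00, adjusted p = 0.0709), while without the barcodes in MC38-held clusters it was 0.28 (adjusted p = 0.851).

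Cx3cr1 of macrophage-like barcodes was 339, 268, 339.5 and 364 in untreated and 146, 265, 209 and 276 in irradiated MC38 libraries. Irradiated replicate 1 was lowest and irradiated replicate 4 lay inside the untreated range, so the groups overlapped and the difference was not called (log2 fold change -0.45, SE 0.19, adjusted p = 0.157). It was called without irradiated MC38 replicate 4 (-0.54, adjusted p = 0.0965) or irradiated Panc02-SIY replicate 3 (-0.42, adjusted p = 0.0880). In Panc02-SIY Cx3cr1 spanned 219 to 268 and 218 to 426 in this class (log2 fold change 0.28, SE 0.20, adjusted p = 0.512).

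**Figure D4:**
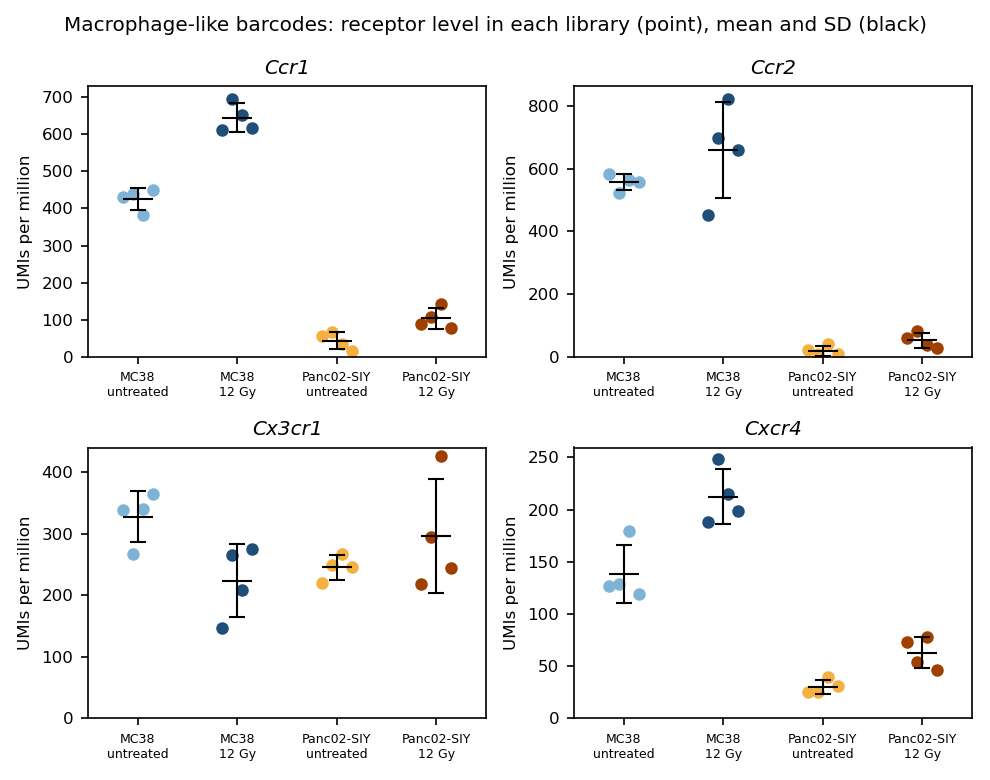
Level of Ccr1, Ccr2, Cx3cr1 and Cxcr4 in macrophage-like barcodes, as CPM, in each of the 4 libraries of each group (points) with the mean and SD (bars). Cxcr4 of irradiated libraries lay above that of untreated libraries in both tumors, at 188 to 248 against 119 to 179 in MC38 and 46.2 to 77.9 against 25.3 to 39.6 in Panc02-SIY.

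The other classes could be tested mainly in Panc02-SIY. Ccr1 of cDC-like barcodes was 25.9, 20.6, 27 and 12 in untreated and 63.7, 43.9, 67.2 and 46.6 in irradiated libraries. The groups did not overlap, and Ccr1 rose 2.66-fold (log2 fold change 1.41, SE 0.29, adjusted p = 0.0915), where 0.12% of all genes were called. The 8 monocyte markers summed to 1201 to 1615 untreated and 1502 to 2274 irradiated in the cDC-like libraries, and the 8 neutrophil markers to 48.6 to 265 and 121 to 228. The larger of the 2 clusters behind this class, with 373 barcodes of both tumors, was led by immunoglobulin genes such as Ighg2b, Igha and Jchain, with 9 of its 10 cDC1 markers raised. At a clustering resolution of 2 these genes led a B-like cluster instead, and Ccr1 of the cDC-like class rose by 1.45 (adjusted p = 0.0441). The part of any of these in the result was not tested. The call was lost with RLE scaling, library size alone, a minimum count of 10, a fit of Panc02-SIY alone and the gate on single barcodes (adjusted p = 0.111 to 0.165). The call was lost without untreated replicate 2 or 4, irradiated replicate 1, 3 or 4, or irradiated MC38 replicate 3 or 4, with adjusted p values up to 0.470. After thinning 4.63% (2.72 to 7.31) of cDC-like barcodes had a UMI of Ccr1, within the interval of the B-like class.

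Ccr1 of neutrophil-like barcodes was 948, 890.1, 901 and 909.8 in untreated and 1236, 1444, 1353 and 1379 in irradiated Panc02-SIY libraries. Every irradiated library was higher, but the difference of 1.51-fold missed the threshold (log2 fold change 0.59, SE 0.14, adjusted p = 0.119), and 0.173% of all genes passed it. It passed with DESeq2 (adjusted p = 0.00454), without a filter on low counts (adjusted p = 0.0336) and with the replicate number as a block (adjusted p = 0.0108). Cxcr4 in the same class was 2137, 2225, 2212 and 1661 untreated and 2147, 2249.7, 2230.2 and 1686 irradiated. The ranges overlapped almost fully (log2 fold change 0.03, SE 0.14, adjusted p = 0.979).

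Monocyte-like barcodes of Panc02-SIY held 714, 921, 1035 and 941 CPM of Ccr2 untreated and 855, 1079.9, 1031 and 930.4 irradiated, which overlapped (log2 fold change 0.12, SE 0.14, adjusted p = 0.880). Their Ccr1 was 135 to 309 and 263 to 433 (log2 fold change 0.66, SE 0.25, adjusted p = 0.453), and their Cx3cr1 177 to 252 and 114 to 212 (log2 fold change -0.52, SE 0.18, adjusted p = 0.329), which was called without irradiated replicate 1 (-0.75, adjusted p = 0.0561). None of the 6 receptors was called in this class, where 0.51% of all genes were. In alternatives Ccr1 was called without a filter on low counts (0.66, adjusted p = 0.00648) and when barcodes were gated on their own markers (1.03, 0.0694). It was also called with the replicate number as a block (0.70, adjusted p = 0.0403). Cxcr6 was called without a filter on low counts (-1.54, adjusted p = 0.0374).

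Cxcr3 of NK-like barcodes fell in Panc02-SIY, from 56.5, 32.9, 33.8 and 42.2 in untreated to 28, 23, 26.5 and 18 in irradiated libraries. The groups did not overlap, and Cxcr3 was called (log2 fold change -0.87, SE 0.22, adjusted p = 0.0539), in a class where 0.54% of all genes were called. The 8 T cell markers in these libraries summed to 1301 to 1728 untreated and 1132 to 1466 irradiated, and a cluster led by Gzmc and Xcl1 held 135 of 765 and 145 of 1318 NK-like barcodes. Cxcr3 pooled at 58.6 CPM in that cluster and at 23.9 in the largest NK-like cluster of Panc02-SIY. Their part was not tested. The call was lost without untreated replicate 1 (adjusted p = 0.281) or 4 (0.193) and without irradiated replicate 1 (0.101), 2 (0.197), 3 (0.191) or 4 (0.158). Cxcr3 of CD8 T-like barcodes was 65.2, 42.2, 35.5 and 45.4 untreated and 50.8, 49.8, 42.3 and 33.4 irradiated, which overlapped (log2 fold change -0.22, SE 0.17, adjusted p = 0.557).

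Cxcr6 of CD8 T-like barcodes was 641, 513, 562 and 367 CPM in untreated and 744, 873, 705 and 503 in irradiated Panc02-SIY libraries. The ranges overlapped, and the difference was not called (log2 fold change 0.33, SE 0.17, adjusted p = 0.325). NK-like barcodes kept their Ccr2 within a narrow range, at 655, 604, 547 and 519.9 untreated and 557, 571, 644 and 619 irradiated (log2 fold change -0.01, SE 0.18, adjusted p = 0.994). In the whole T cell-like class of Panc02-SIY, Cxcr4 was 60.1, 48.1, 67.6 and 31.9 untreated and 171, 93, 112 and 70.6 irradiated. Those groups did not overlap, but the difference was not called (log2 fold change 0.99, SE 0.33, adjusted p = 0.143). It was called without irradiated replicate 4 (adjusted p = 0.0904), with DESeq2 (0.0518), with doublets removed (0.0961), with all deposited barcodes (0.0816) and in a fit of the Panc02-SIY libraries alone (0.0968). A block on the replicate number also called it (adjusted p = 0.00652). The 8 neutrophil markers in these libraries summed to 13.1 to 46.3 untreated and 21.4 to 352 irradiated. The T subsets did not share the rise alike, with Cxcr4 folds of 1.37 in CD8 T-like, 0.901 in CD4 T-like and 0.875 in Treg-like barcodes. CD8 T-like barcodes (21.3 CPM of Cxcr4, pooled) held a mean of 43.8% of UMIs untreated and 26.2% irradiated. CD4 T-like barcodes (210 CPM) held 2.48% and 4.26%. The part of neutrophil RNA and of the subset mix was not tested. No receptor was called in the T cell-like class of Panc02-SIY as a whole, where 4.57% of all genes were, nor in CD8 T-like (6.2%), CD4 T-like (0.314%), Treg-like (0.431%) or B-like barcodes (0.0198%). In alternatives Ccr1 was called in the T cell-like class with DESeq2 (log2 fold change 1.58, adjusted p = 0.0582) and without irradiated replicate 4 (2.00, 0.0149). All deposited barcodes (1.61, adjusted p = 0.0921) and the gate on single barcodes (1.98, 0.0917) called it there too. That gate called Ccr1 in CD8 T-like (1.72, adjusted p = 0.0908) and CD4 T-like barcodes (1.89, 0.0356). Without irradiated replicate 4 it was called in CD8 T-like barcodes (1.93, adjusted p = 0.0287). With the replicate number as a block Ccr1 was called in T cell-like (1.44, adjusted p = 0.0409) and CD8 T-like barcodes (1.17, 0.0120). That block also called Cxcr4 in CD8 T-like barcodes (0.42, adjusted p = 0.0473). The CD8 T-like result depends on the clusters tied between the general and CD8 T lists. Without them, an alternative added after the data were seen, the class was mostly a cluster of 753 barcodes led by histone genes. Cx3cr1 (log2 fold change 1.15, adjusted p = 0.000175), Cxcr4 (0.93, 0.0173) and Cxcr6 (0.43, 0.0845) were then called in it in Panc02-SIY. In MC38 neither NK-like nor T cell-like barcodes had a called receptor, where 0.43% and 0.502% of all genes were called.

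**Figure D5:**
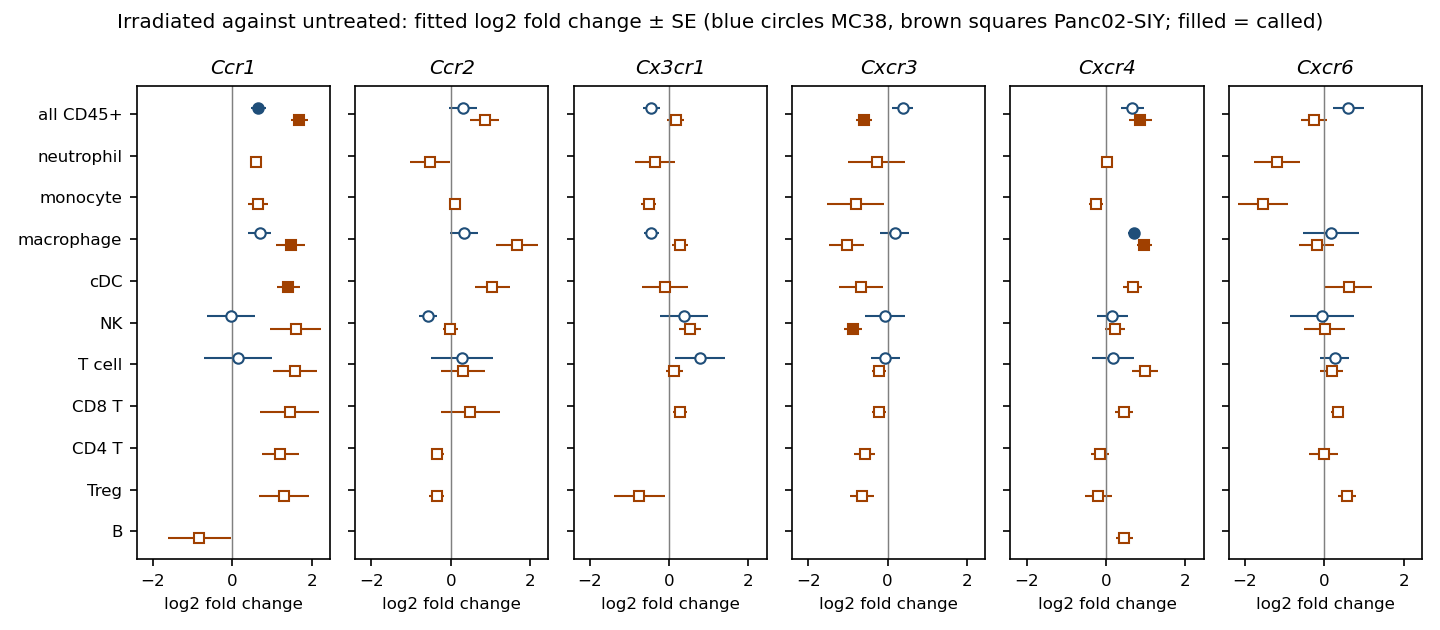
Log2 fold change of each receptor, irradiated against untreated, with its SE, in every population tested, for MC38 (blue circles) and Panc02-SIY (brown squares). Filled symbols mark the 2 calls in MC38 and the 7 in Panc02-SIY.

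Whether irradiation moved a receptor differently in the tumors was tested as an interaction, the MC38 log2 fold change minus that of Panc02-SIY. None of 24 tests passed in the main edgeR fit, 4 had an unadjusted p under 0.05, and DESeq2 called 1. Of all genes, 0.124% passed with edgeR over these populations, 0.345% in all CD45+, 0.108% in macrophage-like, 0.01% in NK-like and 0% in T cell-like barcodes. Ccr1 in all CD45+ cells was the largest of the 4 in standard errors (log2 fold change -1.03, SE 0.28, adjusted p = 0.164). It was the member called by DESeq2 (-1.06, adjusted p = 0.0330), and it was also called without untreated Panc02-SIY replicate 4 (-0.93, adjusted p = 0.0880) or irradiated Panc02-SIY replicate 4 (-1.25, adjusted p = 0.0889). Scaling by library size alone (-1.21, adjusted p = 0.0792) and all deposited barcodes (-1.18, adjusted p = 0.0562) called it with edgeR too. For Cxcr4 of macrophage-like barcodes the interaction was -0.26 (SE 0.24, adjusted p = 0.863). The difference in Cxcr3 of all CD45+ cells was 0.97 (SE 0.34, adjusted p = 0.256), and it was called with the replicate number as a block (1.01, adjusted p = 0.0922).

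More tests were called between the tumors than between treatments. In untreated tumors 14 of 24 tests of the receptors were called (58.3%), 9 higher and 5 lower in MC38, against 34.7% of all genes over the same populations. In irradiated tumors it was 11 of 24 (45.8%), 7 higher and 4 lower, against 34.9%. In all CD45+ cells, where 61.1% and 58.5% of all genes were called, 5 of the 6 receptors were called in each comparison. The 2 comparisons are separate in samples, but each shares its libraries with an irradiation comparison above.

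Ccr1 in all CD45+ cells was 10.04-fold higher in untreated MC38 than in untreated Panc02-SIY (log2 fold change 3.33, SE 0.22, adjusted p = 6.08e-09) and 4.91-fold higher after irradiation (log2 fold change 2.30, SE 0.21, adjusted p = 2.79e-07). The lowest MC38 library, at 365 CPM, stood above the highest Panc02-SIY library, at 191. Ccr2 was 3.90-fold (log2 fold change 1.96, SE 0.37, adjusted p = 0.000356) and 2.68-fold higher (log2 fold change 1.42, SE 0.37, adjusted p = 0.00400), and Cx3cr1 4.15-fold (log2 fold change 2.05, SE 0.22, adjusted p = 1.07e-06) and 2.72-fold higher (log2 fold change 1.45, SE 0.22, adjusted p = 4.24e-05).

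The lymphoid receptors went the other way. Cxcr6 was lower in MC38, with a log2 fold change of -3.89 (SE 0.39, adjusted p = 8.52e-07) in untreated and -3.02 (SE 0.38, adjusted p = 1.12e-05) in irradiated tumors. All MC38 libraries lay at or below 30.5 CPM of Cxcr6 and all Panc02-SIY libraries at or above 166. Cxcr3 had log2 fold changes of -2.24 (SE 0.23, adjusted p = 5.70e-07) and -1.28 (SE 0.24, adjusted p = 0.000276). Cxcr4 was not called in either, at 0.28 (SE 0.29, adjusted p = 0.410) and 0.08 (SE 0.28, adjusted p = 0.839). The classes held very different shares of the sorted cells, macrophage-like 61.4% in untreated MC38 and 15% in untreated Panc02-SIY, and CD8 T-like barcodes were 22 of 1327 and 3025 of 9405. Neither Cxcr6 nor Cxcr3 was called in T cell-like barcodes. Their folds in MC38 over Panc02-SIY were 0.664 and 1.13 untreated and 0.699 and 1.27 irradiated. Without untreated MC38 replicate 4 Cxcr6 was called there in untreated tumors (log2 fold change -1.05, adjusted p = 0.0114). In NK-like barcodes Cxcr6 went the other way, at 2.87-fold untreated and 2.73-fold irradiated, with no call. DESeq2 called both (adjusted p = 0.0684 and 0.0575).

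Within macrophage-like barcodes, where 46.9% of all genes were called between untreated and 49.1% between irradiated tumors, the receptors still differed. Ccr2 was 39.7-fold higher in untreated MC38 (log2 fold change 5.31, SE 0.50, adjusted p = 2.43e-06), at 521 to 582 against 7.77 to 41.7 CPM. After irradiation it was 15.7-fold higher (log2 fold change 3.97, SE 0.44, adjusted p = 1.01e-05). Ccr1 was 12.2-fold higher untreated (log2 fold change 3.60, SE 0.36, adjusted p = 2.80e-06) and 7.07-fold irradiated (log2 fold change 2.82, SE 0.32, adjusted p = 1.04e-05). Cxcr4 was 4.86-fold (log2 fold change 2.28, SE 0.17, adjusted p = 9.84e-11) and 4.06-fold higher (log2 fold change 2.02, SE 0.17, adjusted p = 3.46e-10). None of the 8 MC38 libraries overlapped a Panc02-SIY library for these genes, and all 6 calls held when each library was left out and when barcodes were gated on their own markers.

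Cx3cr1 of macrophage-like barcodes was nearer between the tumors, at 0.51 (SE 0.19, adjusted p = 0.0396) untreated and -0.21 (SE 0.19, adjusted p = 0.400) irradiated. Cxcr6 was lower in MC38 macrophage-like barcodes, with a log2 fold change of -3.45 (SE 0.51, adjusted p = 5.68e-05) in untreated tumors. T cell markers moved with it. The 8 T cell markers summed to 18.4 to 32 CPM in macrophage-like barcodes of untreated MC38 and to 338 to 634 in those of Panc02-SIY, and their part was not tested. The same holds for the monocyte markers given above, which stood higher in MC38 macrophage-like libraries. MC38 barcodes of the cluster that held most Panc02-SIY macrophage-like barcodes, 152 in number, had pooled levels of 332 for Ccr1 and 307 for Ccr2, against 58.5 and 12.6 in the 1898 Panc02-SIY barcodes of that cluster.

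The NK-like barcodes of the tumors also fell largely into different clusters, with 272 of 333 MC38 barcodes in one of low depth that held 93 from Panc02-SIY, and 1710 of 2083 Panc02-SIY barcodes in another that held 55 from MC38. Over both treatments Ccr2 pooled at 282 CPM in MC38 and 747 in Panc02-SIY in the first cluster, and at 395 and 603 in the second. In NK-like barcodes Ccr2 was lower in MC38 after irradiation (log2 fold change -1.09, SE 0.21, adjusted p = 0.000147), at 407, 251, 209 and 284 against 557, 571, 644 and 619 CPM. The groups did not overlap. In untreated tumors, at 645, 233, 385 and 372 against 655, 604, 547 and 519.9, they overlapped through MC38 replicate 1 (log2 fold change -0.53, SE 0.20, adjusted p = 0.0969). Leaving out any library of these groups other than that one, or any irradiated Panc02-SIY library, ended this call, with adjusted p values of 0.128 to 0.359, and without MC38 replicate 2 the log2 fold change was -0.35. Ccr1 was higher in NK-like barcodes of MC38, at 10.4, 34.5, 27.5 and 37.2 against 1.01, 2.19, 0.805 and 1.26 untreated (log2 fold change 4.17, SE 0.72, adjusted p = 3.56e-05). These levels rest on only 2 to 8 UMIs of Ccr1 per MC38 library and 1 to 2 per Panc02-SIY library. The 12 macrophage markers in the same NK-like libraries summed to 754 to 1898 in untreated MC38 and 38.3 to 577 in untreated Panc02-SIY. After irradiation the Ccr1 difference was 2.53 (SE 0.57, adjusted p = 0.00112) beside macrophage marker sums of 1124 to 1507 and 165 to 192, and the call was lost without irradiated MC38 replicate 4 (1.70, adjusted p = 0.223). The irradiated NK-like libraries held 0 to 12 UMIs of Ccr1 in MC38 and 3 to 12 in Panc02-SIY. The part of macrophage RNA in these differences was not tested. Called genes made up 12.6% and 16.8% of all genes in this class.

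Ccr1 was likewise higher in T cell-like barcodes of untreated MC38 (log2 fold change 3.44, SE 0.80, adjusted p = 0.0200), where macrophage markers summed to 605 to 1311 against 172 to 403 in Panc02-SIY and 12.8% of all genes were called (10.4% between irradiated tumors). Its call rests on 2 to 23 UMIs of Ccr1 per untreated MC38 library and was lost without untreated MC38 replicate 1 (adjusted p = 0.209). Cx3cr1 was lower in T cell-like barcodes of untreated MC38 (log2 fold change -1.41, SE 0.45, adjusted p = 0.0571). The MC38 libraries held 0 to 37.4 CPM, from only 0 to 8 UMIs of Cx3cr1, and the Panc02-SIY libraries 42.2 to 65.2 CPM. MC38 replicate 3 had a count of 0, which allows up to 18.5 CPM. The makeup of the class differed, with 22 CD8 T-like and 37 Treg-like of 80 barcodes in untreated MC38 and 3025 and 163 of 3881 in untreated Panc02-SIY, and pooled Cx3cr1 in Panc02-SIY was 58.4 in CD8 T-like and 22 in Treg-like barcodes. Without the T cluster that has no subset, an alternative added after the data were seen, the direction was the same and the call was lost (adjusted p = 0.227). The direction did not hold when barcodes were gated on their own markers, where it was 0.02 (adjusted p = 0.990), and the call was lost without untreated MC38 replicate 1, 2 or 3 (adjusted p = 0.124 to 0.129).

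The ligands of the 6 receptors were read in the same cells from a list of 15 genes. In all CD45+ cells of Panc02-SIY 7 of the 13 tested rose after irradiation and none fell, with a median log2 fold change of 0.93 against -0.03 for all genes, of which 14.7% were called in either direction. Ccl12 (1.74, adjusted p = 0.00580), Ccl7 (1.13, adjusted p = 0.0214) and Ccl2 (1.15, adjusted p = 0.0299) are ligands of Ccr2. Cxcl10, a ligand of Cxcr3, rose by 1.41 (adjusted p = 0.00940), and Ccl6, a ligand of Ccr1, by 0.96 (adjusted p = 0.0558). In MC38 1 of 13 rose, Ccl6 (0.91, adjusted p = 0.0887), with a median of 0.41 against 0.04 for all genes. That count lies below the 11.7% of all genes called and is no result about the ligands. In macrophage-like barcodes Ccl2 rose in MC38 (0.88, adjusted p = 0.0451) and Ccl12 in Panc02-SIY (1.51, adjusted p = 0.0704).

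Of 19 other chemokine receptors, 11 could be tested in all CD45+ cells. After irradiation 4 rose in Panc02-SIY and 2 in MC38, and none fell, where 14.7% and 11.7% of all genes were called. The MC38 counts here and for the signalling genes are near or below that background and are no result about the lists. Among them Ccrl2, an atypical receptor that presents chemerin, rose in both (0.90, adjusted p = 0.00228 in Panc02-SIY and 0.62, adjusted p = 0.0243 in MC38). The chemerin receptor gene Cmklr1 (1.51, adjusted p = 0.00247) and the neutrophil receptor gene Cxcr2 (0.93, adjusted p = 0.0361) rose in Panc02-SIY. Of 15 genes of receptor signalling and trafficking, all tested, 5 rose in Panc02-SIY and 1 in MC38, Dock2 (0.44, adjusted p = 0.0968), which activates Rac in migrating leukocytes. Grk5, a kinase that acts on ligand-bound receptors, rose by 0.80 (adjusted p = 0.0300) in Panc02-SIY, and Rgs2, which speeds the shutdown of G proteins, by 0.39 (adjusted p = 0.00377).

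Between the untreated tumors 9 of the 13 ligands were higher and 3 lower in MC38, with a median of 2.26. Ccl12 (7.42, adjusted p = 2.86e-09), Ccl7 (4.93, adjusted p = 2.00e-08) and Ccl2 (4.51, adjusted p = 1.17e-07) were higher, as was Cxcl16, the ligand of Cxcr6 (3.49, adjusted p = 1.87e-08). Of the other receptors 3 were higher and 7 lower of 11, and of the signalling genes 5 were higher and 7 lower of 15. In irradiated tumors the counts were 8 and 3 ligands, 3 and 4 receptors, and 4 and 7 signalling genes. With 61.1% and 58.5% of all genes called in these comparisons, the irradiated counts of receptors and signalling genes are near the background. For the interaction no ligand and no other receptor passed, and 1 signalling gene did, Rac2 (0.55, adjusted p = 0.0951).

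The genes whose levels were most like each receptor's were found over 18 profiles of a class in a tumor, as Pearson correlations of log2(CPM + 20). The profiles share libraries and differ in depth, so these are descriptions. For Ccr1 they were Clec5a (0.92), Cxcl2 (0.92) and Ccrl2 (0.90), and for Ccr2 Emp3 (0.84) and Casp8 (0.79). For Cx3cr1 they were C3ar1 (0.88), Ctsc (0.86) and Atp13a2 (0.85), and for Cxcr4 Mylip (0.88), Trim12c (0.83) and Treml2 (0.83). Cxcr3 was followed by the T cell costimulatory gene Cd28 (0.94), Il27ra (0.93) and Kbtbd11 (0.93), and Cxcr6 by Cd3g, a chain of the T cell receptor complex (0.97), Bcl11b (0.97) and Camk4 (0.97).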

How the data were processed

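Per the labels and the study's methods, live CD45+ tumor cells were enriched on beads, sorted and sequenced as 16 10x 3' v3.0 libraries, 4 per group. The deposited values are raw UMI counts per barcode and gene, made by the authors with Cell Ranger 3.1.0 after bcl2fastq 2.20.0 on mm10, per the submitters' processing notes, so alignment, UMI counting and cell calling are theirs. Their aggregated matrix of all libraries was not used. A barcode sequence found in several libraries of a tumor was kept once, in the copy with the highest UMI total. Groups were taken from the sample labels.

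Barcodes were clustered with scanpy 1.11.5 and leidenalg 0.10.2 (numpy 2.4.6, pandas 2.3.3, scipy 1.17.1 and Python 3.11.15) on 2000 variable genes, without 25 chemokine receptor genes, with 30 components, 20 neighbours and resolution 1. A class name needed 3 or more raised markers of a list, each above the cluster mean by more than 1 on the log2 scale with 20 CPM added. Clusters in which the general and CD8 T lists tied were put in the CD8 T-like class, a choice made after the clusters were seen. A tie of other T lists gave the name T cell, in 1 cluster with 2 of 8 general T markers raised. The cDC-like class holds the cDC1-like and mregDC-like clusters. Doublets were left in, and an alternative removed the 5% of barcodes with the highest Scrublet score per library. UMI counts were summed per library and class, from at least 10 barcodes in at least 3 libraries per group, and fitted in R 4.3.3 with edgeR 4.0.16 and limma 3.58.1 (TMM scaling, all 4 groups in a single fit with a coefficient each, and the robust quasi-likelihood test, after filterByExpr at minimum counts of 3 for classes and 10 for all CD45+, with totals of 15). Two-sided p-values were adjusted over all genes of a population by the Benjamini-Hochberg method. Fold changes are fitted values after TMM, while levels are plain CPM. The fits were tested on simulated counts. Alternatives were DESeq2 1.42.0, other scalings, filters, thresholds, barcodes and classes, and leaving out each library. Figures were drawn with matplotlib 3.10.9.

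The 6 receptors and the marker, ligand, receptor and signalling lists were chosen with earlier results of these data known. Genes named beside the 6 are called genes of the 3 pathway lists, at most 5 per list and comparison by adjusted p, and the 3 genes most like each receptor over class profiles. A gene that these rules name is not reported here. A protein table was not used here.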

Additional observations from a re-analysis of the deposited data

Results flagged for a closer look

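Within 150 groups of 4 libraries, 9 held a library whose gap to the nearest of the others was above Dixon's 95% critical value, as a share of the group's range. Chance flags about 1 in 20 groups. Ccr2 of all CD45+ cells was 175 CPM in irradiated Panc02-SIY replicate 4, against 322 to 338 in the others. Cxcr4 of macrophage-like barcodes was 179 in untreated MC38 replicate 3, against 119 to 128. Cxcr4 of neutrophil-like barcodes was 1661 in untreated Panc02-SIY replicate 4, against 2137 to 2225. Irradiated replicate 4 was likewise the lowest of its group there, at 1686. Cxcr3 of macrophage-like barcodes was 8.82 in irradiated Panc02-SIY replicate 1, from only 3 UMIs, against 2.11 to 2.73.

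Cxcr3 of T cell-like barcodes was 75.0 in untreated Panc02-SIY replicate 1, where the lowest of the others was 46.5. Cxcr6 was flagged in T cell-like barcodes at 630.4 in untreated MC38 replicate 4, against 216 to 262, and in neutrophil-like barcodes at 15.7 in irradiated Panc02-SIY replicate 3, against 2.73 to 4.86. Cx3cr1 of cDC-like barcodes was 60.4 in untreated Panc02-SIY replicate 1, against 11.2 to 18.6. Cx3cr1 of NK-like barcodes was 0 in irradiated MC38 replicate 2, against 34.9 to 40.7, but a count of 0 among its 107478 UMIs allows up to 27.9 CPM. The reason for each was not tested.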

How the results depend on the processing

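Of 36 named results, 20 kept their direction and their side of the threshold in every setting. The counts of called receptors in the text are 2 for irradiation in MC38, 7 in Panc02-SIY, 14 between untreated tumors, 11 between irradiated tumors and 0 for the interaction. With library size alone they were 4 in MC38 and 1 for the interaction. DESeq2 gave 12 in Panc02-SIY and 1 for the interaction. No filter on low counts gave 1 in MC38, and only the groups compared gave 4 in MC38 and 4 in Panc02-SIY. Those 4 in Panc02-SIY included Cxcr4 of T cell-like barcodes, which the main fit did not call. Fewer than 4 of the 7 calls in Panc02-SIY were therefore kept when that tumor was fitted alone. All barcodes, shared ones included, gave 1 in MC38, 11 in Panc02-SIY and 1 for the interaction. The barcode gate gave 1 in MC38, and an adjusted p below 0.05 gave 1 in MC38 and 3 in Panc02-SIY. Leaving out each library gave 1 to 3, 2 to 9, 12 to 14, 10 to 12 and 0 to 1 in the same order, and without irradiated Panc02-SIY replicate 3 the count in Panc02-SIY was 2. With all UMIs of each barcode in place of 1000, the shares were 77.9% and 4.60% for Ccr2 of macrophage-like barcodes in MC38 and Panc02-SIY and 86.7% for Cxcr6 of CD8 T-like barcodes. Cx3cr1 of T cell-like barcodes between untreated tumors reversed under the barcode gate, to 0.022. The causes were not tested.

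With the replicate number as a block the counts were 5 in MC38, 13 in Panc02-SIY and 1 for the interaction. The numbers were not taken to pair the libraries, since 5 of 24 correlations between same-numbered libraries were above 0.1 (range -0.156 to 0.751) and 9 of 24 were highest with their own number. Between untreated and irradiated Panc02-SIY they were 0.404, -0.156, 0.320 and 0.751 for replicates 1 to 4, and all but replicate 2 were highest with their own number, a hint from the data and not from the design. Keeping macrophage-like barcodes only in clusters of their own tumor was added after the data were seen and left the counts at 2, 6, 14, 11 and 0. So was leaving out the T cluster with no subset, which gave 2, 7, 13, 11 and 0. Leaving the tied clusters out of the CD8 T-like class, also added later, called Cx3cr1, Cxcr4 and Cxcr6 in CD8 T-like barcodes of Panc02-SIY. The cell filter left 20 of 27 fits. T cell-like and NK-like barcodes of MC38 numbered 174 and 333.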

Other observations

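Some genes of the pathway lists were called in single classes after irradiation and are named here after their values were seen. Ccr7, the receptor for lymph node homing, rose in T cell-like barcodes of MC38 (3.63, adjusted p = 0.0168). That class is small, with 12 to 25 barcodes per untreated library. Irradiated replicates 1, 3 and 4 had 14, 32 and 42, and irradiated replicate 2, with 6, was not used. Grk5 rose in macrophage-like barcodes of MC38 (1.05, adjusted p = 0.0887), and so did Ccrl2 (0.64, adjusted p = 0.0227). In Panc02-SIY Ccl12 rose in monocyte-like (3.32, adjusted p = 0.0161) and CD8 T-like barcodes (2.00, adjusted p = 0.0520). The 12 macrophage markers in the CD8 T-like libraries summed to 106 to 352 CPM untreated and 152 to 262 irradiated. The 8 monocyte markers there summed to 602 to 837 and 433 to 937. The part of myeloid RNA in the CD8 T-like result was not tested. CD8 T-like barcodes also had higher Cxcl10 (1.20, adjusted p = 0.000787) and Rgs1 (0.49, adjusted p = 0.0441). Cmklr1 rose in NK-like barcodes of Panc02-SIY (0.91, adjusted p = 0.0892).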
